A study of Rattus norvegicus with 20 samples.

Results

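In cultured rat neural stem cells, 142 genes stood at least 1 log2 unit higher under sustained CHIR99021 than without a stimulus, and differed by less than 1 log2 unit between 0 and 5 d of unstimulated culture. They were chosen from 32623 Ensembl gene IDs by their level L, log2(CPM + 1), where CPM is the read count scaled to a library total of 1000000. Both sustained CHIR99021 libraries, 3 d ON and 5 d ON, had to reach an L of 3 (7 CPM) and to lie at least 1 above each of the 4 unstimulated libraries of 3 and 5 d. The mean of the unstimulated libraries at 5 d had to differ by less than 1 from that at 0 d. Of the 264 genes that met the conditions on level and margin, 81 were set aside because unstimulated cells had at least 1 more at 5 d than at 0 d, 39 because they had at least 1 less, and 2 by name. The values under CHIR99021 at 3 and 5 d and in the unstimulated libraries therefore describe the choice and support nothing further; at least 1 above all 4 unstimulated values stood all members by rule, and 4.02% and 4.22% of the 12190 genes that passed a filter on low counts at 3 and 5 d. The libraries of 1 d ON and of withdrawal, and every library of Wnt3a and light, did not enter it. No limit was set on the change from 0 to 3 d without a stimulus. The unstimulated 3 d mean lay at least 1 above the 0 d mean for 12 members (all genes 13.9%). It lay at least 1 below for 15 members (all genes 7.57%).

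In the canonical Wnt pathway, a Wnt ligand binds Frizzled and LRP receptors at the cell surface and stops a complex containing the kinase GSK-3 from marking β-catenin for destruction. β-catenin then accumulates and acts with TCF and LEF factors on target genes in the nucleus. In the adult hippocampus, Wnt signalling takes part in the maintenance of neural stem cells and in the formation of neurons from them. Wnt3a is such a ligand, CHIR99021 is a small molecule that inhibits GSK-3 inside the cell, and optoWnt is a light-responsive construct that starts the pathway at the co-receptor LRP6.

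The 20 libraries profiled the 3' ends of messenger RNA in cultured hippocampal neural stem cells of adult Fisher 344 rats, in basal medium with N-2 supplement and 0.5% fetal bovine serum. Wild-type and optoWnt cells with no inducer were sequenced at 0, 3 and 5 d, in 1 library each, and are called unstimulated here. All 14 stimulated libraries came from optoWnt cells, which had been transduced and kept as a puromycin-selected population. They received CHIR99021 (labelled as 3 mM), Wnt3a (100 ng/mL) or light. Each inducer was given without interruption (ON) for 1 or 3 d, or for 1 d before 1 or 2 d of withdrawal (OFF), in 1 library each. CHIR99021 and Wnt3a were also given for 5 d. The titles of the unstimulated 3 and 5 d libraries carry the word ON, and whether they received light was not given in the sources used here. Each combination of inducer, genotype and profile has 1 library, so the spread behind every test comes from libraries that differ in inducer or profile. The labels do not say whether libraries came from separate cultures.

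The files used here do not pair Ensembl IDs with gene symbols. Members are therefore given by ID, with no function, position or sequence, and the labelled cell type could not be checked against its markers. Totals ran from 696463 reads (Wnt3a 1 d ON) to 5935681 (unstimulated optoWnt, 3 d). In the shallowest library 3 reads correspond to 4.31 CPM, and 53 of the 142 members had fewer than 3 reads there. On the first principal component, 6 libraries stood apart from the other 14, with scores of -41.5 or lower against 8.9 or higher. The 6 were the wild-type libraries of 0 and 5 d, light 3 d ON, Wnt3a 5 d ON, and the 2 d OFF libraries of CHIR99021 and of Wnt3a. Leaving out the 2 CHIR99021 libraries of the rule, the mean L of the 6 was at least 1 lower than that of the other 12 for 14.1% of the members and for 14.5% of all 12190 genes. It was at least 1 higher for 7.04% of the members and 5.52% of all genes. All 142 members passed that filter.

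The members ranged widely in abundance under CHIR99021. The lower of the 2 sustained CHIR99021 values had a median of 47.1 CPM and ran from 7.24 to 2410 CPM, and 46 members reached 100 CPM or more in both libraries. The highest unstimulated value of 3 and 5 d had a median of 12.4 CPM. The margin between the lower CHIR99021 value and the highest unstimulated value had a median of 1.6 and a maximum of 5.23 on the log2 scale. It was 2 or more for 51 members, 3 or more for 18 and under 1.5 for 63. From 3 to 5 d of CHIR99021 the levels were close, with a median difference in L of -0.04 (quartiles -0.37 and 0.35), with 10 members at least 1 higher at 5 d and 5 at least 1 lower (all genes 5.55% and 7.4%). In bulk RNA, a higher level per cell and a larger share of cells with the transcript cannot be told apart.

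**Figure D1:**
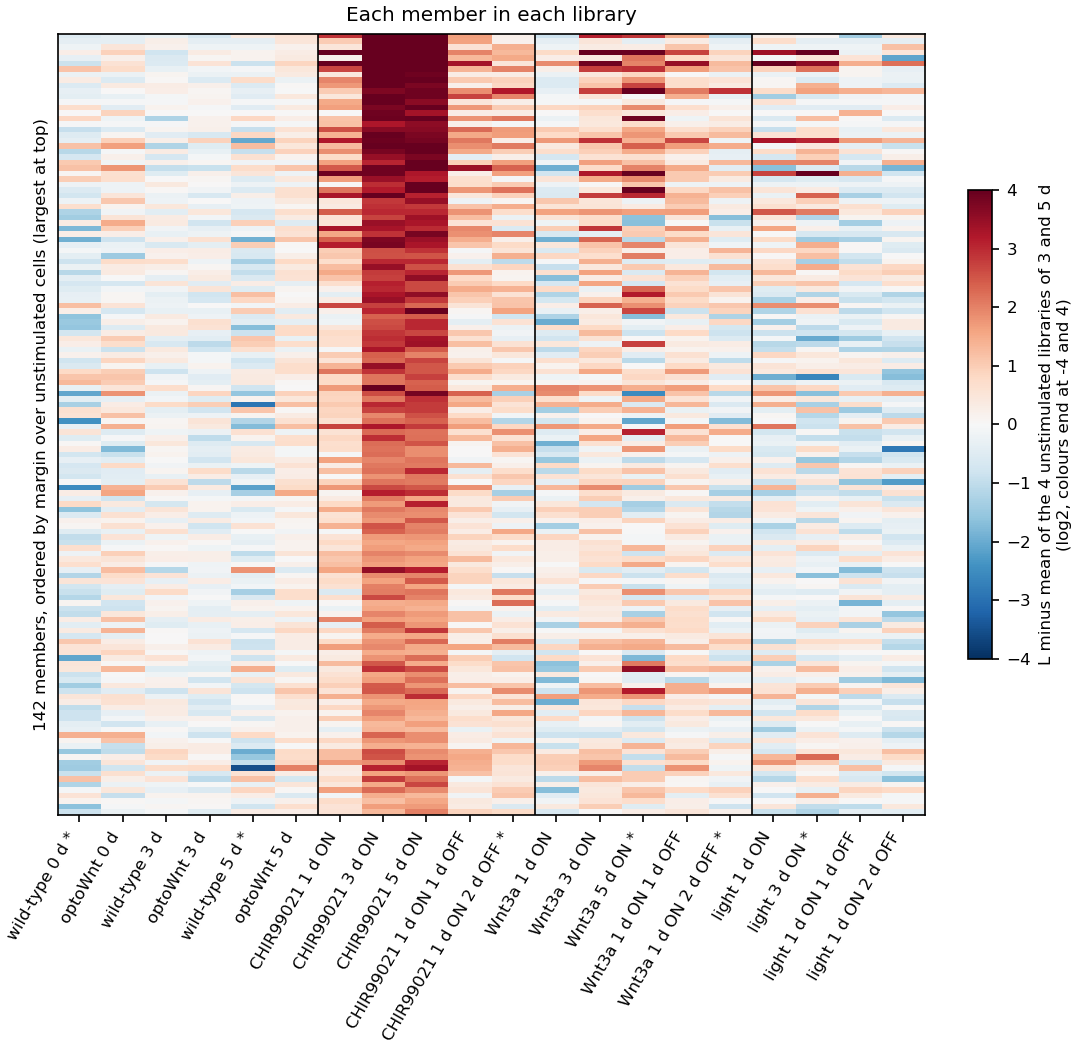
Each row is 1 of the 142 members and each column 1 of the 20 libraries, and the colour gives L minus the mean of the 4 unstimulated libraries of 3 and 5 d (log2, red higher, blue lower). Rows are ordered by margin, asterisks mark the 6 libraries that stand apart, and the red columns of CHIR99021 at 3 and 5 d ON are those that chose the genes.

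ENSRNOG00000008336 had the largest margin. It stood at 4.68 (wild-type 3 d), 3.37 (optoWnt 3 d), 7.76 (wild-type 5 d) and 9.06 CPM (optoWnt 5 d) without a stimulus and at 408 and 377 CPM after 3 and 5 d with CHIR99021. At 1 d of CHIR99021 it stood at 50.1 CPM, and after 1 and 2 d of withdrawal at 20.1 and 6.94 CPM, so the last value lay among the unstimulated ones. Under Wnt3a it stood at 2.87, 57.6 and 48.7 CPM at 1, 3 and 5 d ON, and at 17.6 and 2.3 CPM after 1 and 2 d OFF. Under light no library was above the highest unstimulated value: 7.08 and 6.2 CPM at 1 and 3 d ON, and 1.6 and 8.06 CPM after withdrawal.

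ENSRNOG00000058329, second by margin, was nearly absent outside sustained CHIR99021. It had 5 reads over the 4 unstimulated libraries of 3 and 5 d and stood at 46.4 and 79 CPM after 3 and 5 d with CHIR99021. In the 12 other stimulated libraries its highest value was 2.91 CPM, in CHIR99021 1 d ON 1 d OFF, and at 1 d of CHIR99021 it was 1.56 CPM. At the edge of the rule, ENSRNOG00000007272 and ENSRNOG00000004067 passed with margins of 1.01 and 1.012, at 50 and 50.8 CPM and at 63.6 and 103 CPM under CHIR99021 against highest unstimulated values of 24.3 and 31 CPM. Just outside it, ENSRNOG00000058011 had a margin of 0.998 (9.96 and 9.31 CPM, highest unstimulated value 4.16) and ENSRNOG00000019653 one of 0.994 (52.1 and 50 CPM, highest unstimulated value 24.6).

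The members were next followed in the 9 libraries of 1 d ON and of withdrawal, to ask whether the inducers differed where the rule had used no library. At matched profiles the members were mostly higher under CHIR99021 than under the other inducers. At 1 d ON, 122 of the 142 stood above their Wnt3a value (85.9%, all genes 54.8%) and 122 above their light value (85.9%, all genes 48.1%), with median differences in L of 0.89 and 0.76. By at least 1, 65 stood above Wnt3a and 0 below it (all genes 11.7% and 7.11%), and 52 stood above light and 0 below it (all genes 7.26% and 8.99%). After 1 d ON 1 d OFF, 127 stood above light (89.4%, all genes 53.7%, median 0.91), while against Wnt3a the count was 92 (64.8%, all genes 41.1%) and the median only 0.18. After 1 d ON 2 d OFF, 123 stood above Wnt3a (86.6%, all genes 52.7%, median 0.55) and 115 above light (81%, all genes 54.4%, median 0.76). The CHIR99021 and Wnt3a libraries of this last profile stand apart, and no library of the first 2 profiles does. The 1 d ON comparison with Wnt3a rests on the shallowest library.

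**Figure D2:**
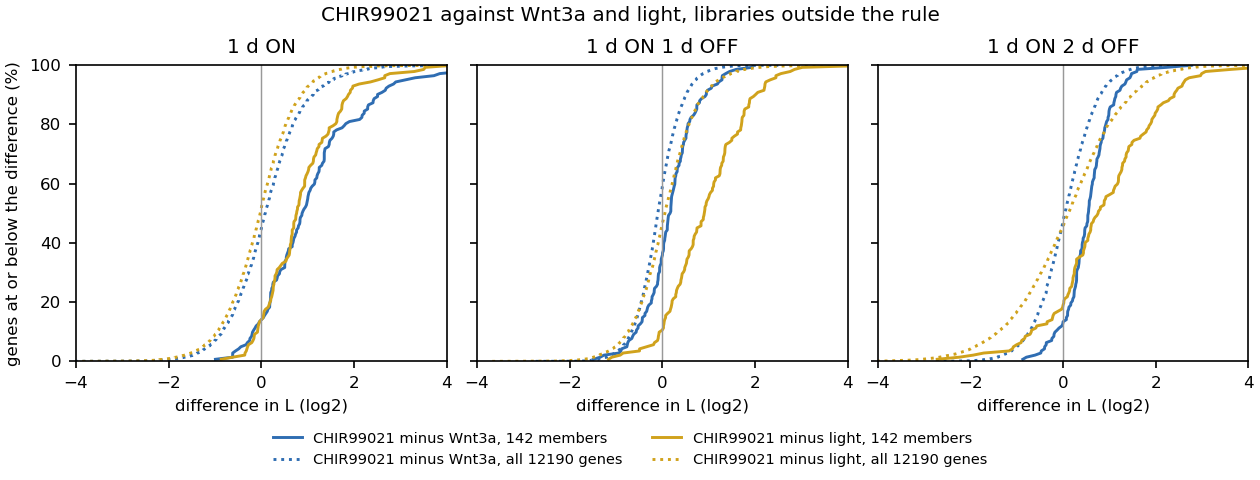
The 3 panels show, for 1 d ON, 1 d ON 1 d OFF and 1 d ON 2 d OFF, the percentage of genes (vertical axis) at or below each difference in L between CHIR99021 and Wnt3a (blue) or light (yellow) on the horizontal axis (log2, shown from -4 to 4). Solid lines are the 142 members and dotted lines all 12190 genes; over most of their length the solid lines lie to the right of the dotted lines of the same colour, least so against Wnt3a after 1 d OFF, where the member median was 0.18.

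Averaged over the 3 profiles, 135 of the 142 members were higher under CHIR99021 than the mean of Wnt3a and light, against 53.4% of all genes. With only the profiles in which no library stands apart the count was 134 (all genes 51.5%), and without Wnt3a 1 d ON it was 132 (all genes 51%). Single members rarely passed a test at this size. In an additive model of profile and inducer over these 9 libraries, edgeR's quasi-likelihood test called 2 members higher under CHIR99021 (adjusted p under 0.05), and 3 of 11238 genes in all (0.0267%). DESeq2 called 4 members (3.28%, all genes 0.436%). edgeR called 1 member when any 1 of the 6 libraries listed below for the second gene was left out (all genes 0.00867% to 0.0174%), and 5 without light 1 d ON 2 d OFF (all genes 0.305%). At an unadjusted p under 0.05 it found 47 members higher and 0 lower among the 122 that passed the low-count filter over these libraries, against 2.54% of all tested genes higher and 2.11% lower. A member could pass that filter through its CHIR99021 libraries alone, so these counts support nothing beyond those over all 142. The median estimate of the tested members was 0.73 (quartiles 0.43 and 1.09), against -0.01 for all genes.

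ENSRNOG00000058645 differed most clearly between inducers. At 1 d ON it stood at 142 CPM under CHIR99021, 5.74 under Wnt3a and 7.08 under light. After 1 d OFF it stood at 280, 72.3 and 10.9 CPM in the same order, and after 2 d OFF at 132, 18.4 and 6.1 CPM. The CHIR99021 library was the highest at each profile, and its lowest value, 132 CPM, exceeded every Wnt3a and light value. The estimated difference was 3.64 log2 units (SE 0.34, edgeR adjusted p = 0.0013, 3 libraries against 6), and the call held with each library left out in turn. Unstimulated cells also varied for this gene, from 58 and 87 CPM at 0 d (wild-type and optoWnt) to 12.5 and 13 CPM at 3 d and 41.7 and 55.2 CPM at 5 d.

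ENSRNOG00000016156 was the other member called. Under CHIR99021 it stood at 299 CPM at 1 d ON, 467 after 1 d OFF and 582 after 2 d OFF. The 3 Wnt3a libraries stood at 115, 118 and 191 CPM and the 3 light libraries at 90.9, 137 and 92.6 CPM. All 3 CHIR99021 values lay above them, while Wnt3a and light overlapped. The estimate was 1.82 (SE 0.26, edgeR adjusted p = 0.042). This call was lost when CHIR99021 1 d ON (edgeR adjusted p = 0.28), CHIR99021 1 d OFF (0.23), CHIR99021 2 d OFF (0.36), Wnt3a 1 d ON (0.2), Wnt3a 1 d OFF (0.11) or light 1 d ON (0.1) was left out. With longer stimulation the gene stood at 2060 and 4280 CPM at 3 and 5 d of CHIR99021, at 185 and 2030 CPM at 3 and 5 d of Wnt3a and at 320 CPM at 3 d of light, against 56.4 to 239 CPM in unstimulated cells of 0, 3 and 5 d. Its high Wnt3a value is that of 5 d ON, a library that stands apart.

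The lowest p-values among estimates below 0 belonged to members whose direction rested on single libraries. ENSRNOG00000018233 had an estimate of -0.33 (SE 0.58, edgeR adjusted p = 0.99), which ran from -1.39 without CHIR99021 1 d OFF to 0.31 without CHIR99021 2 d OFF. Under CHIR99021 it stood at 46.4 CPM at 1 d ON, 129 after 1 d OFF and 9.4 after 2 d OFF. This gene was low in all 6 libraries that stand apart, at 10.9 CPM or less, and at 20.8 CPM or more in the other 14. ENSRNOG00000050647 had an estimate of -0.19 (SE 0.56, edgeR adjusted p = 0.99), or 0.33 without Wnt3a 1 d OFF.

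Between Wnt3a and light in the same 9 libraries, edgeR called 0 members and 0 of 11238 genes (percentage called 0). Of the tested members, 21 were higher under Wnt3a at an unadjusted p under 0.05 (17.2%, all genes 4.74%) and 1, ENSRNOG00000042838, was lower (all genes 6.29%), and DESeq2 called 2 (1.64%, all genes 0.667%). A member could pass the low-count filter through its libraries of 1 inducer alone, so these counts support nothing beyond those over all 142. The gap was clearest after 1 d OFF, where 121 of the 142 stood higher under Wnt3a (85.2%, all genes 58.3%, median difference 0.68). In the 1 d ON libraries, 63 did (44.4%, all genes 41.7%, median -0.03). ENSRNOG00000014686 stood at 11.5, 28.8 and 25.3 CPM under Wnt3a and at 8.17, 6.4 and 4.14 CPM under light at 1 d ON, 1 d OFF and 2 d OFF, so the inducers did not overlap (estimate 1.8, SE 0.44, edgeR adjusted p = 0.39). ENSRNOG00000000635 stood at 35.9, 59.3 and 41.9 CPM under Wnt3a and at 18.5, 21.3 and 18.1 CPM under light (estimate 1.19, SE 0.31, edgeR adjusted p = 0.39). On the other side, ENSRNOG00000042838 had an estimate of -1.55 (SE 0.62, edgeR adjusted p = 0.44), but of -0.32 without light 1 d ON 2 d OFF.

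**Figure D3:**
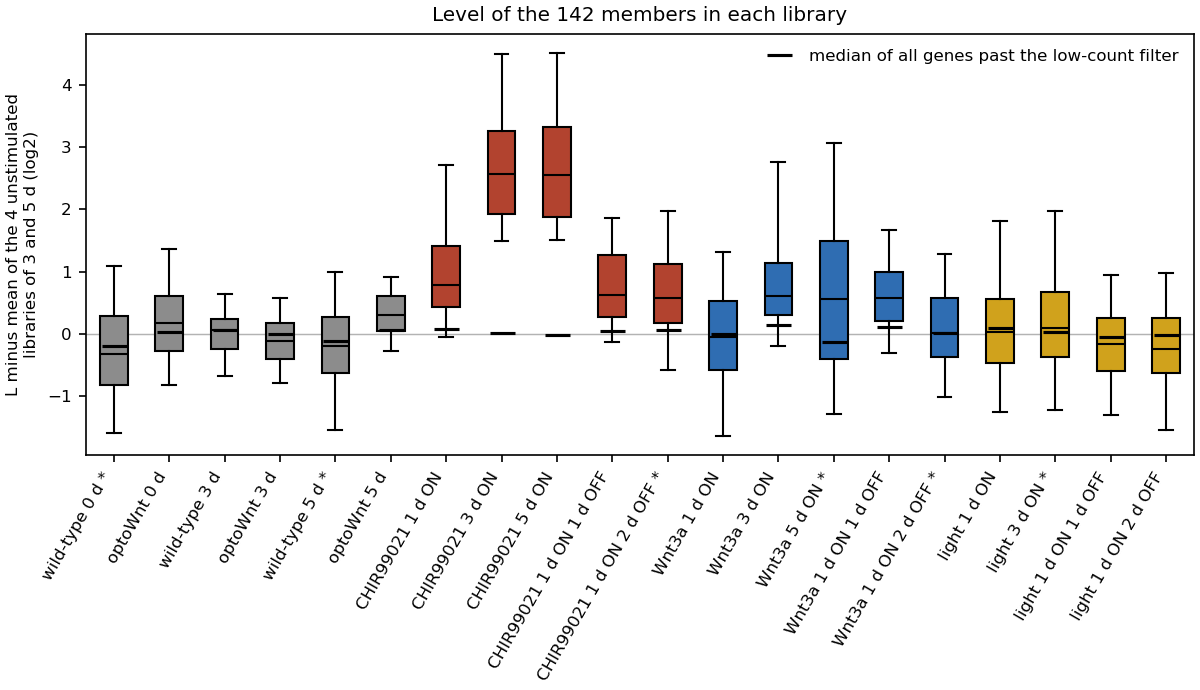
For each of the 20 libraries the box spans the quartiles of the 142 members' L minus the mean of the 4 unstimulated libraries of 3 and 5 d (log2), the thin line is the median and the whiskers reach the 5th and 95th percentiles. Short thick bars give the median of all 12190 genes and asterisks mark the 6 libraries that stand apart; the member median is 0.61 at 3 d of Wnt3a and 0.09 at 3 d of light, against 2.57 at 3 d of CHIR99021.

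Sustained Wnt3a and sustained light were set against the same 4 unstimulated libraries that the rule used. The rule asked for low values there, so the members' differences are described beside those of all genes and beside CHIR99021. At 3 d of Wnt3a, 17 members stood at least 1 above all 4 unstimulated values (12%, all genes 1.09%), and the median member lay 0.61 above the unstimulated mean. At 5 d of Wnt3a 35 did (24.6%, all genes 6.23%), the median was 0.56 and the quartiles were wide, -0.41 and 1.5. At 3 d of light 14 did (9.86%, all genes 3.76%), with a median of 0.09. The 5 d Wnt3a and 3 d light libraries stand apart and the 3 d Wnt3a library does not. The summed level of the 142 members was 6850 and 12400 CPM at 3 and 5 d of Wnt3a and 4830 CPM at 3 d of light, against 22700 and 24500 CPM with CHIR99021 at the same days and 3430 to 4510 CPM in the 4 unstimulated libraries. The sum at 5 d of Wnt3a rests on few members: ENSRNOG00000009884 alone stood at 4440 CPM, against 644 CPM at 3 d, while the median member stood at 16.8 and 16 CPM at 3 and 5 d.

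In a model of day, genotype and inducer over the 9 sustained and unstimulated libraries of 3 and 5 d, edgeR called 46 members higher under CHIR99021 (percentage of all genes called higher 0.854, lower 0.814), from which nothing is read because the rule used these libraries. That count was 1 without CHIR99021 3 d ON, 12 without CHIR99021 5 d ON, 15 without optoWnt 3 d, 25 without wild-type 5 d, and 87 and 80 without Wnt3a 3 and 5 d ON (all genes, in either direction, 0.0732% to 3.84%), and DESeq2 called 99 (all genes 4.97%). edgeR called 0 members under Wnt3a (all genes higher 0.00806%, lower 0%) and 0 under light (all genes 0%). At an unadjusted p under 0.05, 34 members were higher and 1, ENSRNOG00000042838, was lower under Wnt3a (all genes 2.14% and 2.46%), and 13 were higher and 6 lower under light (all genes 2.9% and 4.09%). DESeq2 called 9 members under Wnt3a (6.34%, all genes 0.29%) and 2 under light (1.41%, all genes 0.0725%). The median member estimate was 2.53 under CHIR99021, 0.61 under Wnt3a and -0.02 under light, against -0.05, -0.02 and -0.14 for all genes. These 3 comparisons share their control libraries.

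ENSRNOG00000060863 stood well above unstimulated cells with every sustained inducer. Without a stimulus it stood at 1.3 and 4.04 CPM at 3 d and 3.39 and 3.88 CPM at 5 d (wild-type and optoWnt), and at 3.76 and 6.54 CPM at 0 d. CHIR99021 gave 213 and 85.1 CPM at 3 and 5 d, Wnt3a 116 and 60.5 CPM, and light 68.6 CPM at 3 d. All 5 sustained values lay above every unstimulated value, while those of the inducers overlapped with each other. The estimates were 4.37 for Wnt3a (SE 0.66, edgeR adjusted p = 0.2) and 3.82 for light (SE 0.74, edgeR adjusted p = 0.65). DESeq2 called both (DESeq2 adjusted p = 4.9e-08 and 0.0036), as did edgeR on unfiltered counts. Leaving out the libraries that stand apart leaves 1 Wnt3a library, assumed to vary like the others, and few residual degrees of freedom, so the edgeR adjusted p of 2.6e-06 found there supports nothing further. At 1 d ON it already stood at 160 CPM under CHIR99021 and 40.3 under light but at 5.74 under Wnt3a, a value within the unstimulated range. After 1 d OFF it was 14.8, 25 and 2.4 CPM under CHIR99021, Wnt3a and light, and after 2 d OFF 8.73, 6.31 and 4.58 CPM.

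ENSRNOG00000003869, an abundant member, had the same order of inducers at 3 d. It stood at 65.8 and 75.3 CPM at 3 d and 77.1 and 110 CPM at 5 d without a stimulus (wild-type and optoWnt), and at 1570 and 1480 CPM after 3 and 5 d with CHIR99021. Wnt3a gave 550 and 617 CPM and light 363 CPM, each above every unstimulated value, including 177 and 134 CPM at 0 d. The Wnt3a estimate was 2.64 (SE 0.44, edgeR adjusted p = 0.25, DESeq2 adjusted p = 1.4e-05).

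ENSRNOG00000008570 was the member with the highest ratio of the rise under Wnt3a and light to that under CHIR99021. It stood at 0.26 to 1.45 CPM in the 4 unstimulated libraries. CHIR99021 gave 25.1 and 15.4 CPM at 3 and 5 d, Wnt3a 15.5 and 66.9 CPM, and light 40.5 CPM at 3 d, so that the highest values were not those of CHIR99021. The 66.9 and 40.5 CPM come from libraries that stand apart. The light estimate was 5.79 (SE 1.07, edgeR adjusted p = 0.65, DESeq2 adjusted p = 0.0006), and it rests on 1 library that is assumed to vary like the others. ENSRNOG00000013945, second by that ratio, stood at 3.88 to 7.76 CPM in the 4 unstimulated libraries. At 0 d it stood at 9.6 (wild-type) and 2.84 CPM (optoWnt). It reached 18.8 and 16.8 CPM with sustained CHIR99021, 8.85 and 16.7 CPM with Wnt3a, and with light 18.6 CPM. Its 16.7 and 18.6 CPM also come from libraries that stand apart, and its 8.85 CPM lay below the wild-type 0 d value.

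At the other end, 2 members without a read at 3 d of light had the lowest light estimates. ENSRNOG00000012862 stood at 3.37 to 6.79 CPM in the 4 unstimulated libraries and at 25.6 and 39.6 CPM under sustained CHIR99021. It had 0 reads at 3 d of light, where 3 reads allow a level of up to 1.24 CPM. That is at least 3.85-fold lower than the pooled unstimulated level of 4.78 CPM, a pool of both genotypes and both days. The unstimulated optoWnt library of 3 d alone stood lower, at 3.37 CPM, and the 3 d light library stands apart. ENSRNOG00000012862 was also low in the other light libraries, at 0.545 CPM at 1 d ON, 2.93 after 1 d OFF and 0.872 after 2 d OFF. All 4 light values lay below the lowest unstimulated one. Under Wnt3a it stood at 4.83 and 9.66 CPM at 3 and 5 d. ENSRNOG00000011101 had 0 reads as well, at least 1.85-fold below its pooled unstimulated level of 2.29 CPM, with 1.68 CPM in unstimulated optoWnt at 3 d. Neither was called by edgeR (adjusted p = 0.65 for both). ENSRNOG00000010011, with the lowest ratio, stood at 1.41 and 0.371 CPM under Wnt3a, 0 reads under light and 10.2 and 11.4 CPM under CHIR99021. Under Wnt3a the lowest estimates were those of ENSRNOG00000042838 (-1.49, SE 0.66) and ENSRNOG00000031163 (-1.42, SE 0.68), both with an edgeR adjusted p of 0.91.

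**Figure D4:**
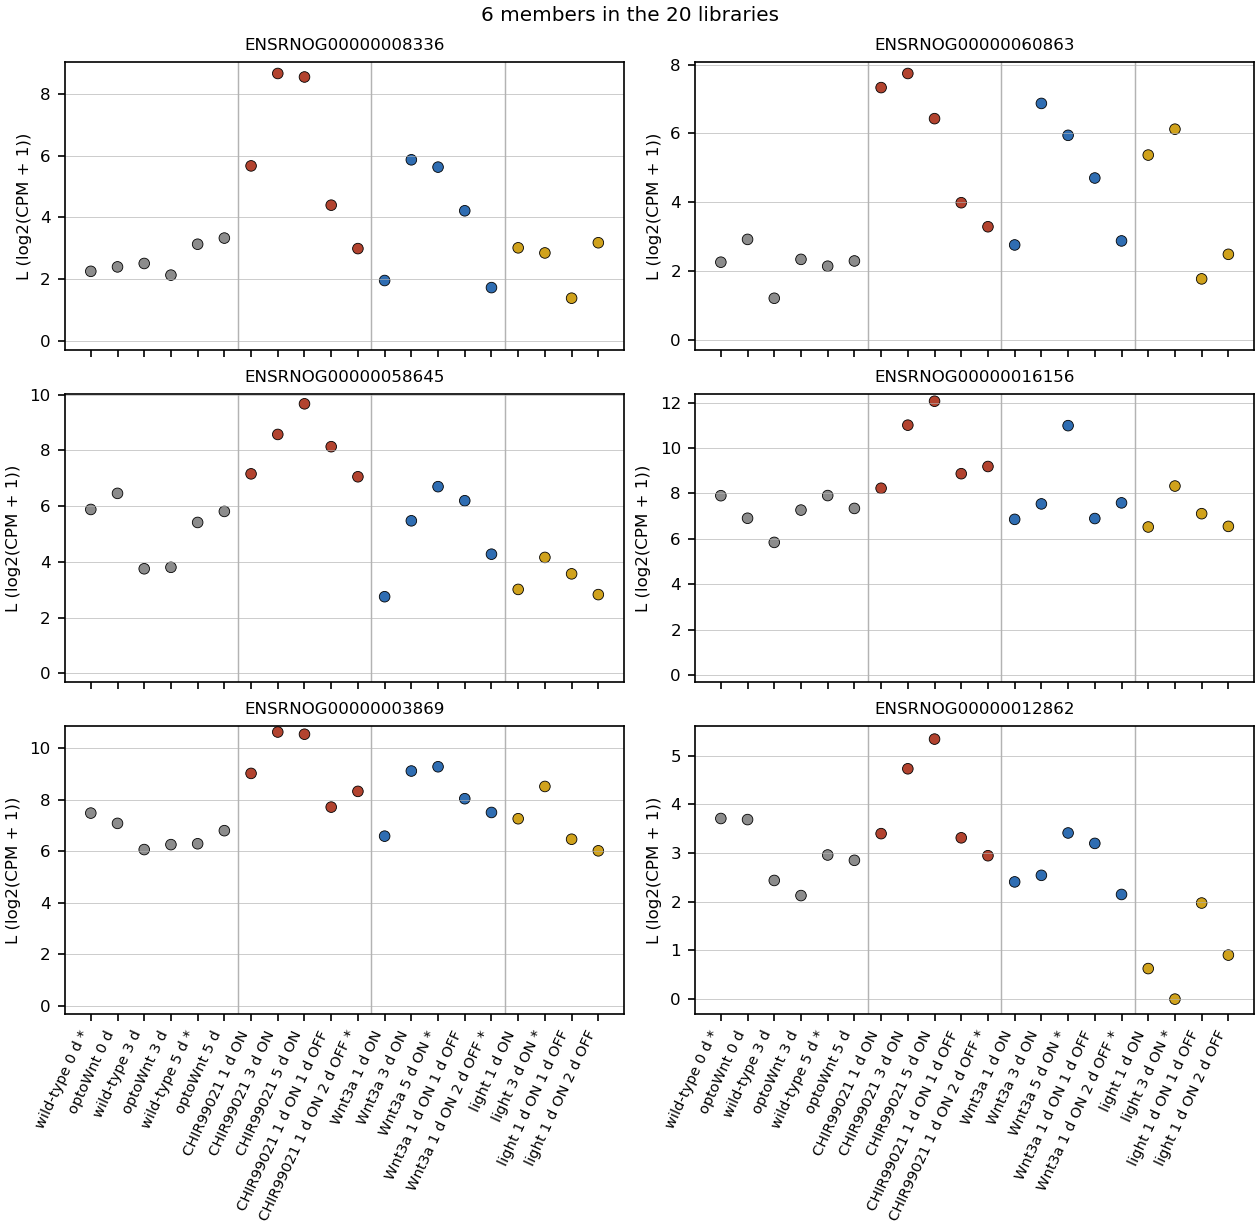
Each panel plots L, log2(CPM + 1), of 1 member in the 20 libraries, with unstimulated cells in grey, CHIR99021 in red, Wnt3a in blue and light in yellow, and an asterisk at the 6 libraries that stand apart. ENSRNOG00000060863 was high with all 3 sustained inducers (213, 116 and 68.6 CPM at 3 d), whereas ENSRNOG00000012862 had 0 reads at 3 d of light.

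The first day of stimulation was compared with cells at 0 d, over all 20 libraries with terms for profile, genotype and inducer. The series holds no unstimulated library of 1 d, so the stimulus and the day of culture cannot be told apart here. Averaged over the 3 inducers, the median member estimate was 0.26 (quartiles -0.33 and 0.93; all genes 0.03). It ran from 0.02 without light 1 d ON to 0.52 without optoWnt 0 d. edgeR called 0 members, 36 of 12190 genes higher (0.295%) and 34 lower (0.279%). At an unadjusted p under 0.05, 9 members were higher (6.34%, all genes 4.53%) and 4 lower (2.82%, all genes 4.69%), and DESeq2 called 3 (2.11%, all genes 2.28%). By inducer, 43 of the 142 members stood at least 1 above the higher 0 d value at 1 d of CHIR99021 (all genes 4.68%). At 1 d of Wnt3a 12 of the 142 did (all genes 7.51%), and at 1 d of light 14 (all genes 9.27%). At least 1 below the higher 0 d value stood 2 of the 142 members under CHIR99021 (1.41%, all genes 13.3%). Under Wnt3a 37 of the 142 did (all genes 20.5%), and under light 35 (all genes 15.5%). The Wnt3a 1 d ON library is the shallowest, and 53 of the members had fewer than 3 reads there, which limits its counts. Against the later unstimulated cells, 28 members were already at least 1 above all 4 values at 1 d of CHIR99021 (19.7%, all genes 1.13%). The rule asked for low values in those 4 libraries, so this count is a description.

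ENSRNOG00000003866 had the smallest p among estimates above 0, 2.39 (SE 0.55, edgeR adjusted p = 0.072; DESeq2 adjusted p = 0.0024). It stood at 3.34 and 8.24 CPM at 0 d and at 53.3, 30.2 and 56.1 CPM at 1 d of CHIR99021, Wnt3a and light. All 3 inducers were above both 0 d values. After 2 d OFF it stood at 15.4, 11.2 and 18.1 CPM, against 5.33 to 15 CPM in the 4 unstimulated libraries of 3 and 5 d. ENSRNOG00000058645 went the other way on average (-2, SE 0.44, edgeR adjusted p = 0.063; DESeq2 adjusted p = 0.0024). Its values, given above, were lower than at 0 d for Wnt3a and light and higher for CHIR99021. The edgeR calls depended on single libraries: without light 1 d OFF ENSRNOG00000003866 had an adjusted p of 0.048, and without Wnt3a 1 d OFF ENSRNOG00000058645 had one of 0.028. ENSRNOG00000060863 (3.03, SE 0.98, edgeR adjusted p = 0.25) had one of 0.032 without Wnt3a 1 d ON. ENSRNOG00000008187 stood at 30.5 and 31 CPM at 0 d and at 12.5, 5.74 and 7.62 CPM at 1 d of CHIR99021, Wnt3a and light (-1.78, SE 0.63, edgeR adjusted p = 0.31). It also stood lower later without a stimulus, at 9.88 and 5.73 CPM at 3 d and 19.4 and 12.2 CPM at 5 d (wild-type and optoWnt).

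Withdrawal was examined first in the 9 libraries of Wnt3a and light, none of which entered the rule. At day 3, the members tended to stand lower after 1 d ON 2 d OFF than at 3 d ON. Under Wnt3a, 105 of the 142 stood higher at 3 d ON (73.9%, all genes 54.5%), by a median of 0.67, and under light 85 did (59.9%, all genes 50.9%), by a median of 0.39. In 47 members both 3 d ON values exceeded both 2 d OFF values (33.1%, all genes 14.6%). edgeR called 0 members and 0 of 12277 genes in either direction (percentage called 0). At an unadjusted p under 0.05, 13 of the 128 tested members were lower after withdrawal (10.2%, all genes 1.9%) and 0 higher (all genes 1.91%), and DESeq2 called 1 member (0.781%, all genes 0.057%). A member could pass the low-count filter through a 3 d ON library alone, so these counts support nothing beyond those over all 142. The Wnt3a 2 d OFF and light 3 d ON libraries stand apart.

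ENSRNOG00000060863 had the smallest p in this comparison. Its 116 (Wnt3a) and 68.6 CPM (light) at 3 d ON compared with 6.31 and 4.58 CPM after 2 d OFF, with no overlap (estimate -3.95, SE 1.01, edgeR adjusted p = 1; DESeq2 adjusted p = 0.01). ENSRNOG00000013090 compared 107 and 133 CPM at 3 d ON with 42.5 and 33.6 CPM after 2 d OFF (-1.59, SE 0.43, edgeR adjusted p = 1). The CHIR99021 libraries of 1, 3 and 5 d ON gave 427, 674 and 470 CPM, and those of 1 and 2 d OFF 105 and 82.4 CPM. The unstimulated libraries stood at 30.7 and 36.1 CPM at 3 d and at 95.5 and 48.9 CPM at 5 d (wild-type and optoWnt). The 2 d OFF values of Wnt3a and light lay within the range of 30.7 to 48.9 CPM. That of CHIR99021 lay above every unstimulated value except that of wild-type 5 d, a library that stands apart. The members with the smallest p among estimates above 0 were ENSRNOG00000020298 (0.87, SE 0.61) and ENSRNOG00000004067 (0.59, SE 0.48), both with an edgeR adjusted p of 1. Without light 2 d OFF the estimate of ENSRNOG00000020298 was -0.07, and without Wnt3a 2 d OFF it was 1.61.

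One day of withdrawal against 1 d ON, in the same fit, gave 0 called members and 0 genes (percentage called 0; DESeq2 0 members), with 3 members higher and 1 lower at an unadjusted p under 0.05 (all genes 1.01% and 0.244%). These profiles also differ by a day of culture, so day and withdrawal cannot be told apart. The median estimate was 0.22, but 0 without Wnt3a 1 d ON and 0.5 without light 1 d ON. The inducers differed in level: 34 members stood higher at 1 d ON than after 1 d OFF under Wnt3a (23.9%, all genes 42.5%, median difference -0.63) and 82 under light (57.7%, all genes 58%, median 0.16). The Wnt3a 1 d ON library is the shallowest. ENSRNOG00000028335 went from 23 (Wnt3a) and 18.5 CPM (light) with 1 d of stimulus to 8.19 and 2.67 CPM after 1 d OFF (-2.1, SE 0.63, edgeR adjusted p = 1). ENSRNOG00000057060 stood at 8.61 and 15.8 CPM and then at 7.19 and 2.13 CPM (-1.5, SE 0.8). ENSRNOG00000018371 went from 15.8 and 16.9 CPM to 62.5 and 29.3 CPM (1.48, SE 0.51, edgeR adjusted p = 1).

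Under CHIR99021, in the libraries outside the rule, the median member was little higher at 1 d ON than after 1 d OFF. Against 2 d OFF the median difference was larger, and some members differed by more (all-gene medians 0.04 and 0.01). These profiles also differ in day, so day and withdrawal cannot be told apart. At 1 d ON 80 members stood above their level after 1 d OFF (56.3%, all genes 53.2%, median 0.12) and 89 above their level after 2 d OFF (62.7%, all genes 50.3%, median 0.45). By at least 1, 20 stood above their level after 1 d OFF and 7 below it (all genes 3.94% and 4.33%). Against 2 d OFF, 36 stood at least 1 above and 16 at least 1 below (all genes 12.7% and 11.7%). The 2 d OFF library stands apart. From 3 d ON, which the rule required to be high, nothing is read about withdrawal. Among the 3 CHIR99021 libraries outside the rule, the median member lay 0.79 above the unstimulated mean at 1 d ON, 0.62 after 1 d OFF and 0.58 after 2 d OFF. The rule asked for low unstimulated values, so heights above them are a description beside all genes (medians 0.08, 0.04 and 0.07). At least 1 above all 4 unstimulated values were 28, 18 and 19 members (19.7%, 12.7% and 13.4%; all genes 1.13%, 0.623% and 1.88%). After 1 and 2 d OFF the median was 0.57 and 0.01 for Wnt3a and -0.16 and -0.24 for light. At least 1 above all 4 unstimulated values were 5.63% and 2.11% of the members for Wnt3a (all genes 0.664% and 2.44%) and 1.41% and 2.82% for light (all genes 0.689% and 1.56%). The median levels at 1 d OFF, against this same reference, were close for CHIR99021 and Wnt3a and lower for light.

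The 28 members that were early under CHIR99021 were compared with the other 114 in libraries that chose neither group, as a description. From 1 d ON 2 d OFF to 3 d ON, the early members stood higher by a median of 1.08 under Wnt3a and 1.02 under light. The others stood higher by 0.59 and 0.29, and all genes by 0.11 and 0.02. In the early members 24 of 28 were higher at 3 d ON under Wnt3a and 19 of 28 under light, against 81 and 66 of the other 114. Of all genes, 54.5% were higher at 3 d ON under Wnt3a and 50.9% under light. From 1 d ON to 3 d ON the medians of the early and other members were 1.22 and 0.67 under Wnt3a (all genes 0.18). Under light they were -0.08 and 0.11 (all genes -0.02), and 12 of the 28 early members were higher at 3 d (all genes 48.8%). Under CHIR99021 at 3 d, which chose the members, the early ones lay 3.74 above the unstimulated mean and the others 2.34. From 3 to 5 d of CHIR99021 the medians were -0.21 and 0.01.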

How the data were processed

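The authors deposited whole-number counts of reads per Ensembl gene ID and well, with no normalization, for 20 libraries made with Lexogen's QuantSeq 3' kit, per the labels. Bowtie2, Subread, featureCounts and build Rnor_6.0 are named in the submitters' processing notes. Not given in the sources used here were versions, strand setting and the treatment of multi-mapping reads, so reads of overlapping genes or near-identical copies may be misassigned. Wells were tied to libraries through the labels. No ID matched a symbol in the gene table used here (0 of 32623), so the gene lists, promoter sequences and motif planned were not used.

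The members and lists were chosen with earlier results of these data known. Levels used library totals. Tests used edgeR 4.0.16 (R 4.3.3, TMM, filterByExpr, quasi-likelihood), with p-values adjusted over all genes by the Benjamini-Hochberg method, and additive models with 9, 3, 4 and 3 residual degrees of freedom for all 20 libraries, Wnt3a and light, the 1 d ON and withdrawn libraries, and the sustained libraries. SE was taken as the estimate over the root of F. The scripts were tested on simulated data. Alternatives were DESeq2 1.42.0, its size factors, no filter (genes with a read), leaving out each library or those that stand apart, and other limits of the rule. Totals and the level of 3 reads set the precision, for counting error only, since PCR copies of a read are not independent molecules. Named were the members with the largest margin, those nearest its limit, those with the smallest p per comparison and direction and those with extreme ratios of rises, at most 2 IDs per direction. ENSRNOG00000010240 and ENSRNOG00000009884 were named after their values were seen.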

Additional observations from a re-analysis of the deposited data

Results flagged for a closer look

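Both Wnt3a libraries of 3 and 5 d lay below all 4 unstimulated libraries of those days in 2 members that the rule had chosen for high CHIR99021 values. The difference between inducers was not tested for them. ENSRNOG00000031163 stood at 3.82 and 2.23 CPM at 3 and 5 d of Wnt3a, at 3.9 to 8.8 CPM unstimulated and at 25.4 and 67.8 CPM under CHIR99021. ENSRNOG00000010240 stood at 34.2 and 27.9 CPM under Wnt3a, at 35.2 to 53.6 CPM unstimulated and at 122 and 115 CPM under CHIR99021. In both, the 3 d Wnt3a value lay close to the lowest unstimulated one, and the 5 d Wnt3a library stands apart.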

How the results depend on the processing

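No paired analysis was possible because the labels give no replicate numbers shared between groups; profile was a term of the fits themselves. The number of members was 79 with a margin of 1.5, 77 with a limit of 0.5 on the change over time, 204 with a margin of 0.75, 118 with an L of 4 and 151 with TMM-scaled totals (137 shared). It ranged from 122 to 249 when 1 library of the rule was left out, with 242 without CHIR99021 3 d ON and 249 without 5 d ON. Without wild-type 0 d and 5 d, an alternative added after the data were seen, it was 205, of which 124 were members. The counts of members higher under CHIR99021 in unused libraries without some profiles or Wnt3a 1 d ON were also added then. Members called depended on the tool. The share of all genes called under the same setting follows each count. For CHIR99021 against Wnt3a and light, DESeq2 called 4 (0.436%), edgeR with no filter 14 (0.482%), and leaving out a library gave 1 to 5 (0.00867% to 0.305%). For Wnt3a against light DESeq2 called 2 (0.667%) and no filter 5 (1.22%). For 1 d ON against 0 d both called 3 (2.28% and 0.708%), and leaving out a library gave 0 to 2 (0.0308% to 0.732%). For 2 d OFF against 3 d ON, DESeq2 called 1 (0.057%), no filter 2 (0.027%), leaving out a library 0 to 1 (0% to 0.0252%), and leaving out the libraries that stand apart 1 (0.0335%). For sustained Wnt3a the counts were 9 with DESeq2 (0.29%), 10 with no filter (0.463%), 7 without those that stand apart (0.291%) and 0 to 1 with a library left out (0% to 0.0325%). For sustained light they were 2 with DESeq2 (0.0725%) and 3 with no filter (0.568%). For sustained CHIR99021, whose libraries chose the members, they were 99 (4.97%), 96 (3.36%), 142 (12.9%) and 1 without CHIR99021 3 d ON to 87 without Wnt3a 3 d ON (0.0732% to 3.84%); leaving out the libraries that stand apart leaves few residual degrees of freedom. The cause was not tested. Of 113 alternative medians, 6 moved by more than the residual spread, among them 1 d OFF against 1 d ON at 0 without Wnt3a 1 d ON and 0.5 without light 1 d ON. No alternative reversed the sign of a named member that the main fit had called, but few were called. Some estimates that were not called changed sign, as given above. Depth limits Wnt3a 1 d ON most, at 4.31 CPM for 3 reads.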

Other observations

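The difference between inducers in the unused libraries was given by level as well. Split at the median of their mean L over 20 libraries, 66 of the 71 lower and 69 of the 71 higher members stood above the mean of Wnt3a and light under CHIR99021, with a median difference of 0.67 in each, against 53.3% and 53.4% of all genes on each side of that level. Among unstimulated cells of 0, 3 and 5 d, 94 of the 142 members had a higher mean L in optoWnt than in wild-type cells (66.2%, all genes 56.8%, median difference 0.24 against 0.09). Of the 3 wild-type libraries, those of 0 and 5 d stand apart.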
